A study of Mus musculus with 3 samples.

Results

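The genes described here are 9 genes of myelin and of the oligodendrocytes that make it: Mbp, Mobp, Mag, Cnp, Mog, Mal, Cldn11, Trf and Opalin. They were chosen by name, and all 9 were present in each section, among 19640 gene names in the 3 sections together. Their transcripts were counted with high-density spatial arrays, on which spots carrying barcoded poly(A) capture probes record where in a tissue section an RNA was caught. The study placed 3 coronal sections of the main olfactory bulb, where the brain first receives signals of smell, on such arrays. All sections came from C57BL/6J mice, an inbred laboratory strain, aged 12 weeks. The labels name no treatment or altered genotype, and none was compared. The groups compared here are 9 regions within each section. From the outside in, they are the olfactory nerve layer, the glomerular layer, the external plexiform layer, the mitral layer, the internal plexiform layer, the external and internal granule cell layers, then the ependymal cell zone, with the rostral migratory system innermost. For sums with more counts, the regions were also joined into 4 zones: outer (the first 3), middle (mitral and internal plexiform layers), granule (both granule cell layers) and core (ependymal cell zone and rostral migratory system). The fits take out each section's own level of a gene (section as a block). Their p-values therefore set a difference between regions against a spread among these 3 sections. The fit estimates that spread largely from all tested genes together. A small p is thus not a measure of how well the sections agree for a single gene. The labels do not say which mouse gave which section, so that spread may be technical.

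Myelin is the stack of membrane that oligodendrocytes wrap around axons in the central nervous system, and it speeds the conduction of nerve impulses. In the olfactory bulb, the axons of olfactory receptor neurons that form the nerve layer are unmyelinated and are bundled by olfactory ensheathing glia, while the axons of mitral and tufted cells acquire myelin as they leave the bulb through its deeper layers. Mbp encodes myelin basic protein, which compacts the cytoplasmic faces of the membrane, and its mRNA is carried out into the oligodendrocyte's processes and translated there. Mobp encodes another small basic protein of compact myelin. Mal encodes a proteolipid of myelin membranes, and Cnp an enzyme of the non-compact cytoplasmic channels. Mag and Mog are immunoglobulin-family proteins of the innermost and the outermost myelin membrane. Cldn11 forms the tight junctions between myelin lamellae, Trf encodes transferrin, the iron carrier, and Opalin is a membrane glycoprotein of mature oligodendrocytes.

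The stretches upstream of Mobp, Cnp and Mal are shown because these members, together with Mbp, were higher in the core than in the outer zone (below), and RefSeq's promoter table for GRCm38.p6 (mm10) holds these 3. In all, 7 of the 9 members had an entry there; Mbp and Trf did not. The stretches end at the base before the annotated gene and are written 5′ to 3′ on the gene's own strand: chr9:120149492-120149706 (plus strand, 215 bases) for Mobp, chr11:100574689-100574903 (plus strand, 215 bases) for Cnp and chr2:127656696-127656945 (minus strand, 250 bases) for Mal. Capitals mark ACAAAG, the core letters bound by SOX factors such as SOX10, and CTGGCAC, the letters bound by MYRF, the transcription factor of myelinating oligodendrocytes, on either strand.
Mobp: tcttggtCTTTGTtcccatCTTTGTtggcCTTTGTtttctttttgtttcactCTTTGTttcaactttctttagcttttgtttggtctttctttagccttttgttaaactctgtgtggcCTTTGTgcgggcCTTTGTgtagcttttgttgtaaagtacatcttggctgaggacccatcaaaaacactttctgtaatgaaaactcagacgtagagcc
Cnp: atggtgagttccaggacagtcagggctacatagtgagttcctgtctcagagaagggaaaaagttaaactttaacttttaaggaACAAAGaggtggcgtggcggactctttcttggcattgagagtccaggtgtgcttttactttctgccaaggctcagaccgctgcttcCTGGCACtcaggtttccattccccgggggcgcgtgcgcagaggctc
Mal: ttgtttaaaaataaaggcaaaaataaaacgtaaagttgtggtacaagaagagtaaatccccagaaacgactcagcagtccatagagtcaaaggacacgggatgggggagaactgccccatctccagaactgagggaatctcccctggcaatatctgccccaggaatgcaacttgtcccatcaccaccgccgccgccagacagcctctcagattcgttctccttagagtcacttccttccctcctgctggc
The Mobp stretch held the SOX letters 6 times, all as CTTTGT, the reverse strand's reading. The Cnp stretch held them 1 time and the MYRF letters 1 time. In the Mal stretch neither was found. Over windows of 250 bases upstream of the start, the SOX letters were found for 4 of the 7 members with an entry (Mobp, Mag, Cnp and Opalin). Mag has several annotated starts, so the 7 members have 9 windows, of which 5 held the SOX letters, where 16.5% of the 32851 windows of the table did. The MYRF letters were found for 2 of the 7 (Mag and Cnp), in 3 of the 9 windows, and in 4.19% of all windows. Of the Mag windows, 2 overlap (chr7:30914864-30915113 and chr7:30914923-30915172). Each held the SOX letters 1 time and the MYRF letters 1 time. The same site may thus be counted in both, and the window counts are not independent. The E-box CAGCTG, the same on both strands and of the kind bound by OLIG2, was found in 0 of the 9, and in 13.0% of all windows. No 2 of these 3 motifs share a position in the stretches shown. These are matches of letters, and binding was not measured.

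The 3 sections held 344260, 650393 and 505305 counts with a gene name, at 3.04 to 4.12 counts per spot with any count. Sums per region ran from 1456 to 182699 counts, and the rostral migratory system of section 3 was the smallest. The 9 members gave 1261, 1065 and 891 counts in sections 1, 2 and 3. That is 0.366% of the counts of section 1 (95% exact binomial interval 0.346% to 0.387%), 0.164% of section 2 (0.154% to 0.174%) and 0.176% of section 3 (0.165% to 0.188%). These intervals, and the limits given below for counts of 0, cover counting error only. Section 1 thus stood above the other two, and values are given for each section for that reason. Most member entries were single counts: 1153 of 1205 entries in section 1, 1016 of 1039 in section 2 and 825 of 856 in section 3 were a count of 1.

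The higher level of section 1 was shared by most members but not by all. Mbp measured 2208 CPM (counts scaled to a common total per section, and in a region per region) in section 1, 898 in section 2 and 994 in section 3. Cnp measured 322, 82.2 and 81.7 CPM, and Mag 125, 24.8 and 49.8 CPM. Mal differed little, at 157, 146 and 139 CPM, as did Trf, at 75.5, 65.1 and 63.8 CPM. The 13 genes of oligodendrocyte precursors, the dividing cells from which oligodendrocytes form, went the other way: in the outer zone their sum measured 459 CPM in section 1, 1320.4 in section 2 and 1277 in section 3. What sets section 1 apart was not tested. Over the annotated regions, Mbp gave 57.0% ± 2.88 of the member counts (SD, n = 3) and Mobp 18.5% ± 2.87, so the tests below rest mainly on these genes. Counts were not scaled by transcript length, so the shares do not rank the genes by expression.

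Each gene has 1 location in the GENCODE M21 annotation of mm10, the build named in the submitters' processing notes, and all are protein-coding. Mbp lies on chromosome 18 from 82475146 to 82585637, on the plus strand. Mobp lies on chromosome 9 from 120149707 to 120181484, also on the plus strand, and Trf on the same chromosome from 103204001 to 103230444, on the minus strand. Mal lies on chromosome 2 from 127633226 to 127656695 and Mag on chromosome 7 from 30899176 to 30914873, both on the minus strand. Cnp lies on the plus strand of chromosome 11 from 100574904 to 100591729, where it overlaps Dnajc7 on the other strand. Mog lies on chromosome 17 from 37010743 to 37023398 and Opalin on chromosome 19 from 41061710 to 41077113, both on the minus strand. Cldn11 lies on the plus strand of chromosome 3 from 31149920 to 31164324. Other annotated genes also overlap members: Gm38642 overlaps Mobp and Gm20425 overlaps Trf on the same strand, while Rpl21-ps8 overlaps Mbp and Gm22388 overlaps Mog on the other strand. The sources used here do not say if counting used strand, so in each of these overlaps reads of the genes may not be told apart.

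Myelin transcripts were more frequent in the core of the bulb than in its outer layers. Mbp and Mobp were each about 2-fold higher in the core zone in every section, and Cnp and Mal passed the same test with less support. Of the 9 members, 4 (Mbp, Mobp, Mal and Cnp) had enough counts to be tested, and 4 of these 4 were higher in the core at an edgeR adjusted p under 0.05. In the same direction, 6.81% of the 2481 genes tested passed. The median log2 difference was 1.01 over the 4 members and 0.01 over all genes.

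Mbp measured 1690.1, 581 and 791 CPM in the outer zone of sections 1, 2 and 3, and 3219.5, 1719 and 1668 CPM in the core. Each section's core was above its own outer zone, by 1.90, 2.96 and 2.11 times, although the outer zone of section 1 reached the level that the core had in sections 2 and 3. On the log2 scale the difference was 1.08 ± 0.13 (SE), with an edgeR adjusted p of 3.66e-13. Mobp measured 372, 255 and 246 CPM in the outer zone and 901, 519 and 687 CPM in the core. Its groups did not overlap, and the core was 2.42, 2.04 and 2.79 times the outer zone. The log2 difference of Mobp was 1.16 ± 0.18, with an edgeR adjusted p of 1.93e-08. In sums over spots, fewer oligodendrocytes and less RNA per oligodendrocyte cannot be told apart.

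Cnp measured 226, 69.2 and 64.0 CPM in the outer zone and 546, 75.7 and 131 CPM in the core. The core was the higher in each section, but by 1.09 times only in section 2. Its log2 difference was 0.95 ± 0.29, with an edgeR adjusted p of 0.0122, and of 0.199 with DESeq2. Mal measured 72.8, 124 and 147 CPM in the outer zone and 316, 238 and 114 CPM in the core, so that in section 3 the core was the lower. Its log2 difference was 0.83 ± 0.28, with an edgeR adjusted p of 0.0305, and of 0.281 with DESeq2; without the rostral migratory system it was 0.0682 in edgeR. Without section 1 the difference of Mal was 0.31, with an edgeR adjusted p of 0.617, and Cnp had too few counts to be tested. Without section as a block in the fit, 0 of the 4 passed, and the edgeR adjusted p of Mbp was 0.529.

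**Figure D1:**
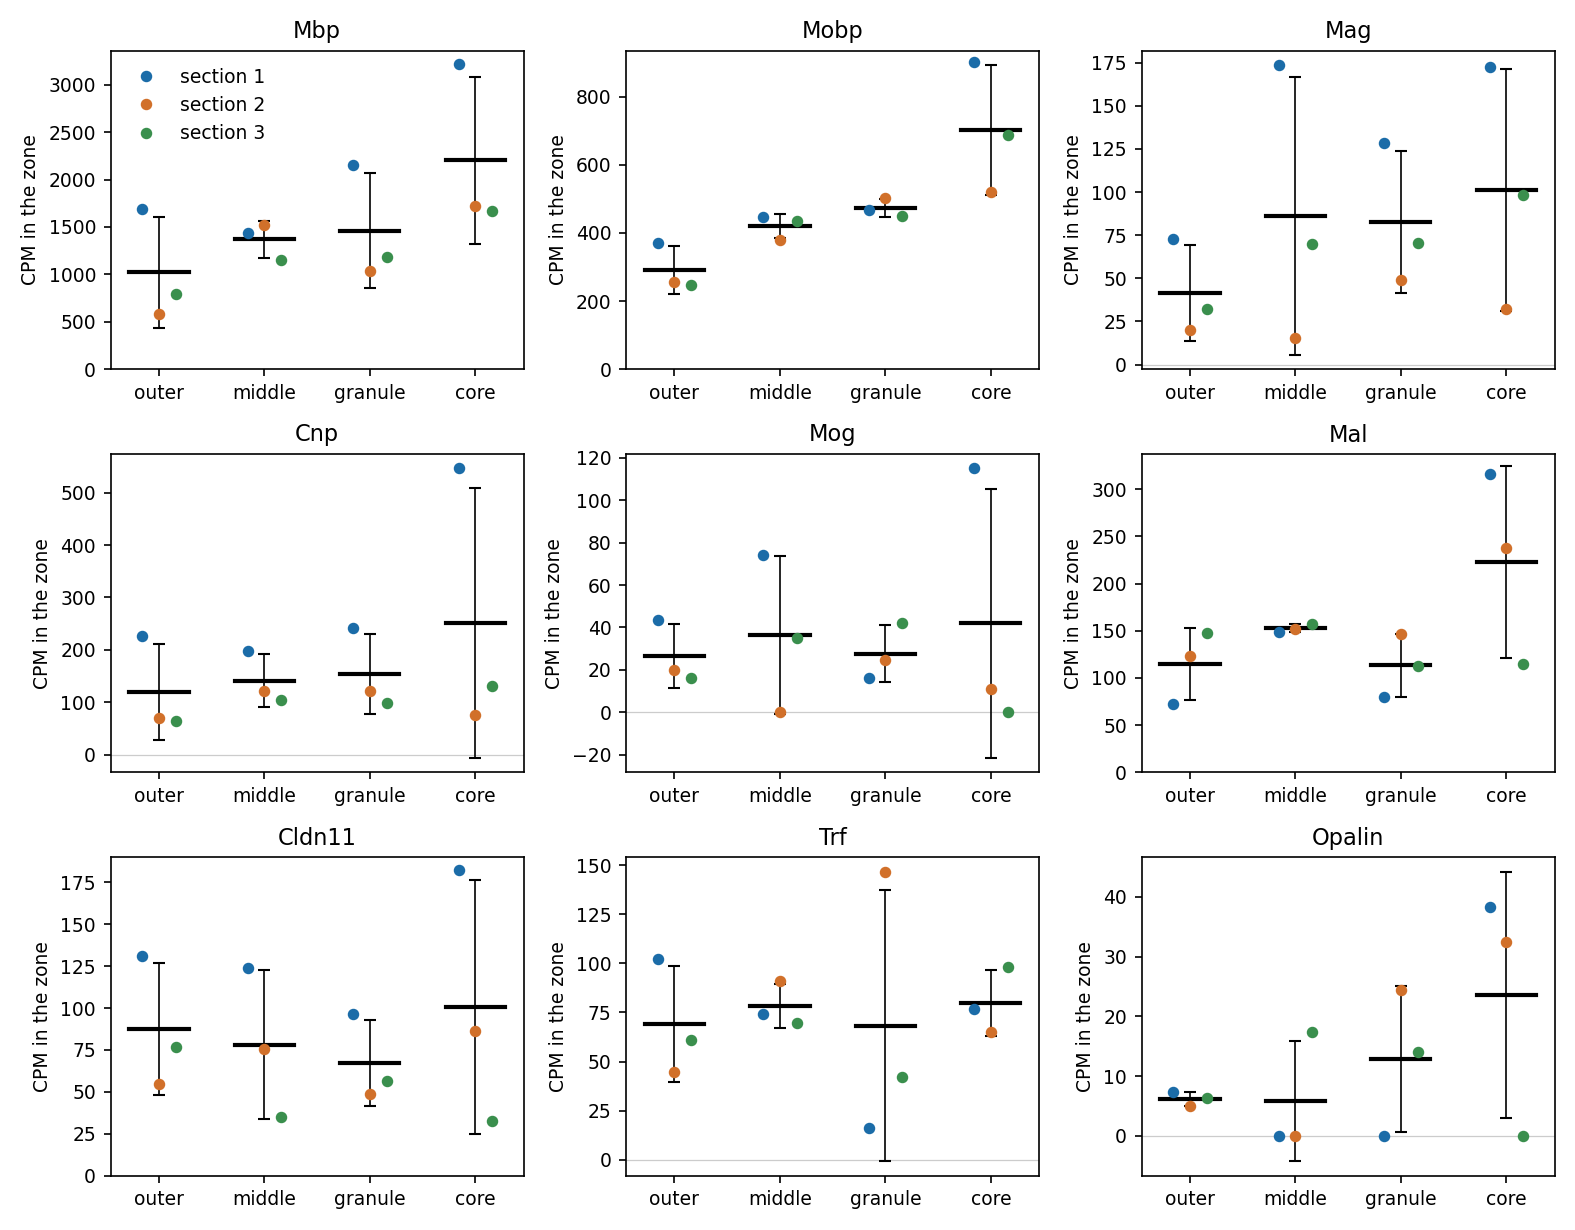
Level of each of the 9 genes (y axis, CPM) in the 4 zones from outer to core (x axis). Each point is 1 section, the horizontal bar is the mean and the whisker the SD over 3 sections, and each panel has its own scale. Mobp rises from 246 to 372 CPM in the outer zone to 519 to 901 CPM in the core, while the points of Trf and Cldn11 overlap between zones.

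The other 5 members had too few counts for the test and are given by their counts. Mag had 10, 8 and 10 counts in the outer zone and 18, 3 and 6 in the smaller core, that is 72.8, 19.8 and 32.0 CPM against 172, 32.4 and 98.1 CPM. The core of Mag was the higher in each section, by 2.37, 1.64 and 3.07 times. Opalin had 16 counts in all regions together, with 1, 2 and 2 in the outer zone and 4, 3 and 0 in the core. Mog was uneven: 12 of its 13 core counts were in section 1, against 1 in section 2 and 0 in section 3, which allows up to 49.1 CPM there. Cldn11 had 18, 22 and 24 counts in the outer zone and 19, 8 and 2 in the core, at 131, 54.4 and 76.8 CPM against 182, 86.5 and 32.7 CPM. The 2 zones of Cldn11 overlap, with the core of section 3 below every outer zone. Trf measured 102, 44.5 and 60.8 CPM in the outer zone and 76.7, 64.9 and 98.1 CPM in the core, and these also overlap. In a fit that kept all genes, the log2 difference between core and outer zone was 1.08 ± 0.46 for Mag (edgeR adjusted p = 0.420), 0.10 ± 0.39 for Cldn11 (0.974) and 0.14 ± 0.44 for Trf (0.963).

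Between the outer zone and the core, Mbp and Mobp were intermediate in the granule zone. Mbp measured 2153, 1039 and 1184 CPM there and Mobp 466, 501 and 451 CPM. Against the outer zone, 2 of the 4 tested members were higher, where 9.47% of all tested genes were higher. The log2 difference was 0.46 ± 0.14 for Mbp (edgeR adjusted p = 0.00911) and 0.61 ± 0.20 for Mobp (0.0175), but 0 of the 4 passed with DESeq2 and 0 without section 2 or without section 3. For Mal the 2 zones overlapped, with 80.3, 147 and 113 CPM in the granule zone. Cnp measured 241, 122 and 98.7 CPM there.

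The core was also above the granule zone, but by less. Only Mbp passed, 1 of 4 tested members where 0.403% of all genes were higher, with a log2 difference of 0.62 ± 0.14 (edgeR adjusted p = 0.00757) and a core 1.50, 1.66 and 1.41 times the granule zone. That call was lost without section 2, without section 3 and with DESeq2, where 0 of the 4 passed. Mobp was 1.93, 1.04 and 1.52 times the granule zone, a log2 difference of 0.55 ± 0.20 (edgeR adjusted p = 0.297). Against the middle zone, Mbp (0.60 ± 0.15, edgeR adjusted p = 0.00667) and Mobp (0.72 ± 0.22, 0.0431) were higher in the core, 2 of 4 members where 1.25% of all genes were higher. Leaving out any 1 section left 0 or 1 of these calls.

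Among single regions, the rostral migratory system had the highest mean level of Mbp, and also the fewest counts of all genes when the 3 sections are joined. Its label is that of the path by which young neurons enter the bulb from the subventricular zone. Mbp measured 6448 CPM there in section 1, 1937 in section 2 and 6181 in section 3, on 105, 10 and 9 counts. In section 2 the internal plexiform layer was higher, at 2153 CPM. A list of 8 neuroblast genes, markers of young neurons, summed to 982, 2131 and 687 CPM in the rostral migratory system. In the external granule cell layer they summed to 1566, 1320 and 1125 CPM. The list was highest in the rostral migratory system in section 2 only, so this region too is called by its label. Against the mean of the other 8 regions, the log2 difference of Mbp was 1.42 ± 0.21 (edgeR adjusted p = 7.74e-09), while the median over all 1996 genes was -0.44. Mbp was 1 of 4 tested members called, where 0.251% of all genes were higher. Without section 1 the difference was 0.54, with an edgeR adjusted p of 0.422. On simulated data the fit found 3.3% of genes changed 2-fold and 64.4% of those changed 4-fold in this comparison. For core against outer zone and for the ependymal cell zone it found 82.8% and 85.4% at 2-fold, and 100% each at 4-fold. Of the simulated calls 33.7% were false here, against 6.67% and 1.69% in those comparisons.

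A list of 6 microglia genes was also highest in the rostral migratory system in every section. Its summed level was 8044, 4649 and 6181 CPM there, against 1499.6 to 5281 CPM over the other 8 regions. Nearly all of it was Cst3, the protease inhibitor cystatin C, which astrocytes make too, with 124, 24 and 9 counts in the region. Cst3 was the only gene of the list with enough counts to be tested, at 0.94 ± 0.19 on the log2 scale (edgeR adjusted p = 6.16e-04). The other 5 (Cx3cr1, C1qa, C1qb, Csf1r and P2ry12) had 7, 0 and 0 counts there, with Cx3cr1 at 0 in each section. The part of these genes in the result for Mbp was not tested.

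Mobp did not follow Mbp evenly in the rostral migratory system. It had 25, 3 and 0 counts there, or 1535 and 581 CPM in sections 1 and 2, and the 0 of section 3 allows up to 2060.4 CPM. Its log2 difference was 1.12 ± 0.35, with an edgeR adjusted p of 0.0846. Mal had 8, 1 and 0 counts, Cnp 11, 1 and 0, Mag 7, 0 and 0, and Cldn11 3, 0 and 0. Trf had 2, 1 and 3. Mog had 0 counts there in every section, which in section 1 allows up to 184 CPM. Compared with the internal granule cell layer, the region was higher for Mbp at 1.32 ± 0.24 (edgeR adjusted p = 2.33e-05), 1 of 4 members where 0.15% of all genes were higher; without section 1 the call was lost. Compared with the ependymal cell zone, 0 of the 4 members passed in edgeR and 1 had an unadjusted p under 0.05, against 1 with DESeq2. Over all genes 0 (0%) passed in edgeR, 262 had an unadjusted p under 0.05, and 3 passed with DESeq2.

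**Figure D2:**
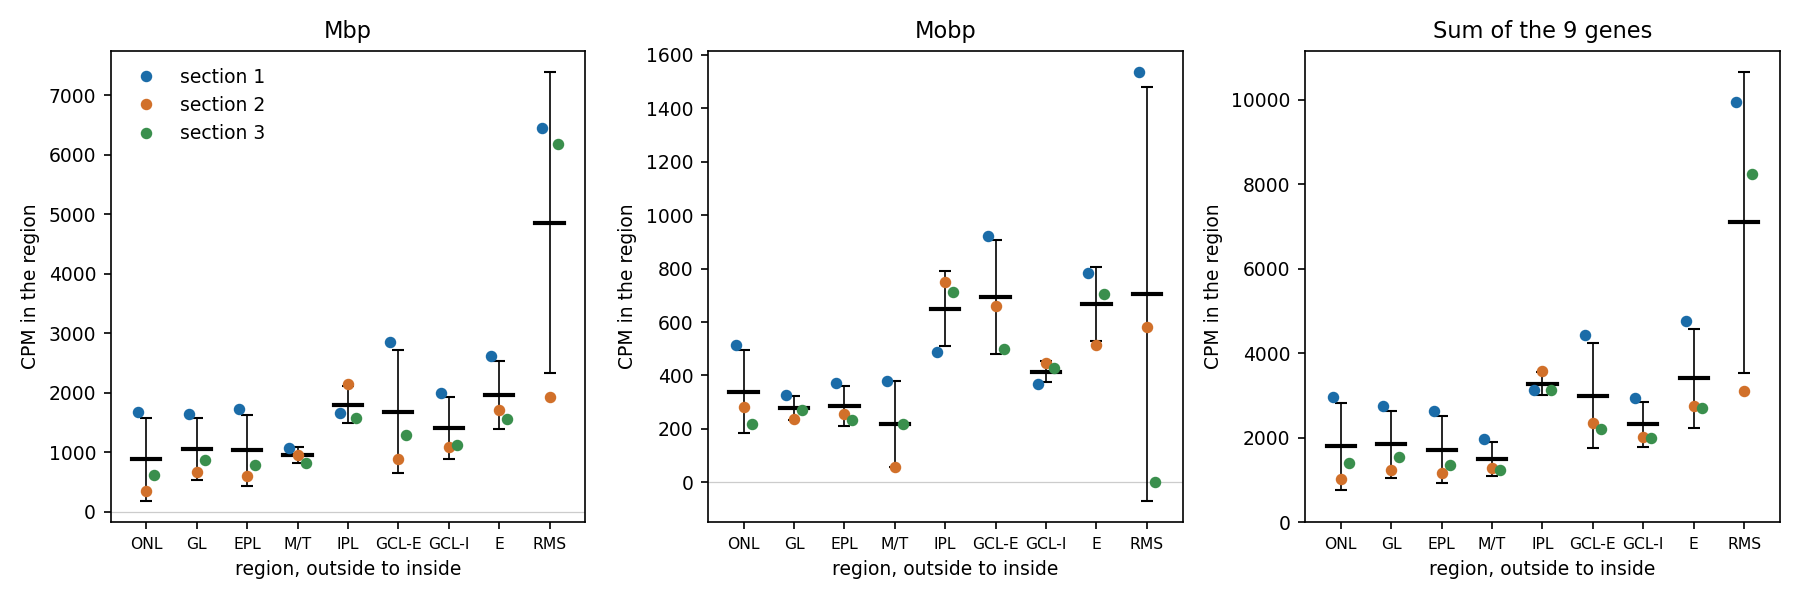
Level (y axis, CPM) of Mbp, of Mobp and of the sum of the 9 genes in the 9 regions in order from outside to inside (x axis). ONL is the olfactory nerve layer, GL glomerular, EPL external plexiform, M/T mitral, IPL internal plexiform, GCL-E and GCL-I external and internal granule cell layers, E ependymal cell zone and RMS rostral migratory system. Points are sections, bars are means and whiskers SDs over 3 sections. The sum lies between 1019 and 2963 CPM in the 3 outermost regions, and the points of the rostral migratory system spread from 3100 to 9948 CPM.

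The ependymal cell zone is the large inner field of each section and gave 821 of the member counts. Mbp measured 2623, 1706 and 1558 CPM there and Mobp 783, 515 and 704 CPM. Both were higher than the mean of the other 8 regions, by 0.52 ± 0.13 (edgeR adjusted p = 0.00907) and 0.65 ± 0.18 (0.0184), which is 2 of 4 tested members where 2.15% of all genes were higher. With DESeq2, without section 2 and without section 3, 0 of the 4 passed. Cnp measured 522, 68.7 and 134 CPM, and Mal 284, 241 and 117 CPM. In both of these, section 1 was the highest, and their log2 differences were 0.57 ± 0.29 and 0.64 ± 0.29 (edgeR adjusted p = 0.313 and 0.235). Against the internal granule cell layer alone, 0 of the 4 members passed in edgeR, though 4 had an unadjusted p under 0.05 and all 4 had a positive difference (0 passed with DESeq2). Over all genes in that comparison, 0 (0%) passed in edgeR, 128 had an unadjusted p under 0.05 and 1 passed with DESeq2.

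The name of this zone was not borne out by markers of ependymal cells, the ciliated cells that line the ventricles. Of the 6 markers listed, Ccdc153 and Tmem212 had 0 counts in the 3 sections, Dynlrb2 had 3, Foxj1 12 and Rarres2 17. Pltp, with 108, was spread over all zones. The summed level of the 6 in the zone was 114, 57.3 and 67.0 CPM, within the range of the other regions. The zone is therefore called by its label here, with no statement on cell type. No source used here says how region borders were set, or if expression values entered into them.

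The internal plexiform layer is the thin band of axons just below the mitral cell bodies. Its level of the 9 genes was alike in the 3 sections: the sum measured 3133, 3589 and 3122 CPM, or 3281 ± 266 (SD, n = 3). In the mitral layer next to it, the sum measured 1966, 1274 and 1249 CPM. The plexiform layer was thus 1.59, 2.82 and 2.50 times the mitral layer, a pair set side by side after its values were seen and not tested. Mobp was 488, 750 and 711 CPM in the internal plexiform layer and 381, 56.6 and 219 CPM in the mitral layer. Mal was 203, 261 and 237 CPM against 63.4, 56.6 and 93.7 CPM, with no overlap, on 5, 8 and 6 counts against 1, 2 and 3.

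Tested against the mean of the other 8 regions, the mitral layer was lower for Mobp, by -1.39 ± 0.36 on the log2 scale (edgeR adjusted p = 0.00846), 1 of 4 tested members where 0.301% of all genes were lower. That call was lost without section 2. For Mbp the difference was -0.58 ± 0.21 (edgeR adjusted p = 0.145). In the internal plexiform layer 0 of the 4 members passed in edgeR, where 0 of all 1996 genes (0%) passed, and 0 passed with DESeq2. At an unadjusted p under 0.05 there were 2 of the 4 members and 140 of all genes. The differences there were 0.43 ± 0.18 for Mbp (edgeR adjusted p = 0.533) and 0.64 ± 0.25 for Mobp (0.489). Without section 1, Mbp passed there, with an edgeR adjusted p of 0.00405.

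In the 3 outermost regions Mbp and Mobp had low mean levels, but not every member did. Cldn11, with too few counts for the test, had its highest mean in the nerve layer. It measured 258, 70.8 and 91.0 CPM there, on 4, 5 and 5 counts, and 182, 91.6 and 33.5 CPM in the ependymal cell zone. In a fit that kept all genes, its log2 difference in the nerve layer was 0.65 ± 0.50 (edgeR adjusted p = 0.942). Mbp measured 1675, 354 and 619 CPM in the olfactory nerve layer, 1651, 662 and 869.7 in the glomerular layer and 1719.5, 602 and 782 in the external plexiform layer. The 3 regions overlap fully, and within each, section 1 was the highest. In the nerve layer Mbp was lower than in the mean of the other 8 regions by -0.92 ± 0.20 (edgeR adjusted p = 1.11e-04), 1 of 4 tested members where 0.701% of all genes were lower. This was lost without section 2. In the glomerular layer Mbp (-0.40 ± 0.14, edgeR adjusted p = 0.0436) and Mobp (-0.58 ± 0.20, 0.0415) were lower, 2 of 4 where 2.15% of all genes were. In the external plexiform layer Mbp (-0.46 ± 0.14, edgeR adjusted p = 0.0130) and Mobp (-0.53 ± 0.19, 0.0468) were lower, 2 of 4 where 1.35% of all genes were. In both layers 0 of the 4 passed with DESeq2. Of the 4 members, Mal alone had a positive difference in the nerve layer, 0.65 ± 0.36 (edgeR adjusted p = 0.366), with 64.4, 127 and 328 CPM. It rests on section 3: without that section the difference was -0.20.

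The 2 granule cell layers were not told apart by these genes. Mbp measured 2856, 896 and 1291 CPM in the external granule cell layer and 2004, 1089 and 1129 CPM in the internal one, and Mobp 921, 660.1 and 499.9 CPM against 370, 445 and 426 CPM. Mobp was the higher in the external layer in each section, with a log2 difference of -0.62 ± 0.34 for internal against external (edgeR adjusted p = 0.997). Between these layers 0 of the 4 members passed, 0 had an unadjusted p under 0.05 and 0 passed with DESeq2; over all genes these counts were 0 (0%), 71 and 0. Against the mean of the other 8 regions, 0 of the 4 members passed in either layer with edgeR or with DESeq2, where 0.401% of all genes passed in either direction for the external and 3.31% for the internal layer. At an unadjusted p under 0.05 there were 1 and 0 members.

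Without the borders of the inner regions, levels were also lower near the nerve layer than far from it. Spots were ranked by distance from the nearest spot of the olfactory nerve layer and cut into 10 bins with equal numbers of spots. The summed level of the 9 genes was 1968 ± 1046 CPM in the nearest bin (SD, n = 3), 1707 ± 869.6 in bin 3, 2299 ± 888 in bin 5 and 3209 ± 1763 in the farthest. Farthest over nearest was 1.66 in section 1, 1.98 in section 2 and 1.31 in section 3, and with 5 bins 1.92, 1.65 and 1.64. The farthest bin is not the core alone: 44.5%, 43.9% and 19.5% of its spots were in the core zone, and in section 3 its main region was the external plexiform layer, with 40.7%. Distance from the nerve layer therefore follows the order of the regions only in part. The lowest bin was bin 2 in sections 1 and 3 and bin 3 in section 2, but with 5 bins the nearest bin was the lowest in section 3. The highest was the farthest bin in section 1, bin 8 in section 2 and bin 9 in section 3.

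**Figure D3:**
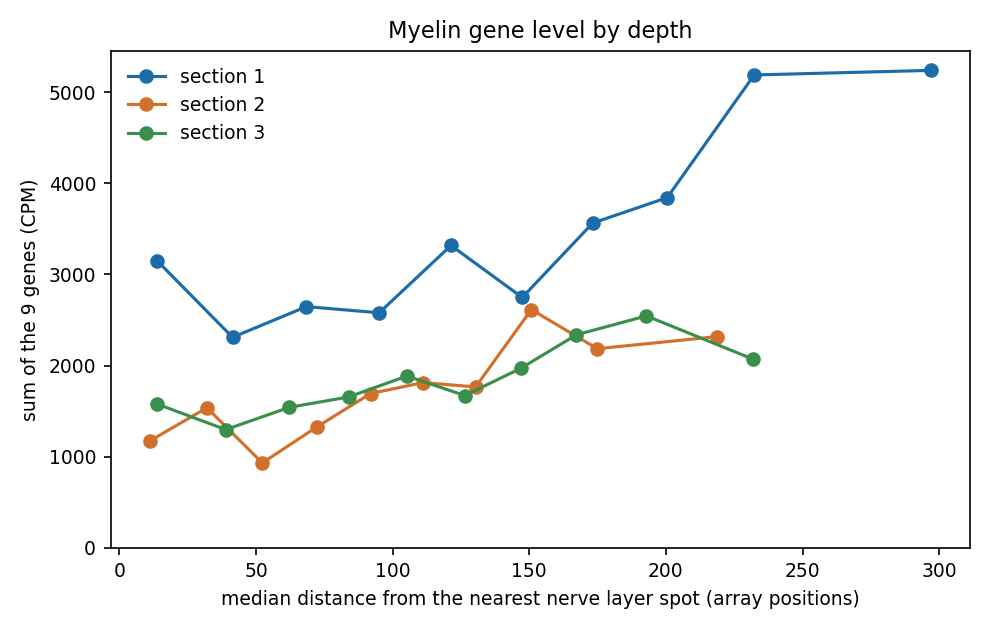
Sum of the 9 genes (y axis, CPM) against the median distance of each of 10 depth bins from the nearest olfactory nerve layer spot (x axis, array positions). Each line is 1 section. Section 1 rises to 5239 CPM in its farthest bin, while sections 2 and 3 peak at 2614 and 2545 CPM.

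Counted per area rather than per count, the rostral migratory system still had the highest mean for the 9 genes, though not the highest value in section 2. The lowest region changed. Per 10000 spots under tissue, the 9 genes gave 8.17 ± 2.04 counts in the nerve layer and 8.94 ± 1.53 in the external plexiform layer, against 22.5 ± 4.43 in the ependymal cell zone and 27.8 ± 11.5 in the internal plexiform layer (SD, n = 3). The external granule cell layer gave 22.87 ± 3.30. The rostral migratory system gave 37.7 ± 14.8, from 50.2, 21.4 and 41.6 in the 3 sections. In section 2 it was below the internal plexiform layer (39.97), both granule cell layers and the ependymal cell zone. The mitral layer, with the lowest mean by CPM (1497 ± 407, against 1722 ± 800.5 in the external plexiform and 1795 ± 1030 in the nerve layer), gave 12.5 ± 3.92 counts per 10000 spots, above all of the 3 outermost regions. Relative to the mean of the 9 regions, the mitral layer had 0.53 ± 0.08 by CPM and 0.66 by spots. All genes together gave 4479, 13053 and 9756 counts per 10000 spots there, the most of any region in sections 2 and 3.

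Within regions, counts of the other myelin genes close to Mbp transcripts were above the region's level, mainly in section 1. Around each spot with an Mbp transcript, counts of the 8 other members were compared with those the same region's level would give. At 1 to 5 array positions there were 102, 60 and 41 such counts in sections 1, 2 and 3. The region's level would give 66.8, 51.0 and 34.2, so the ratio was 1.53, 1.18 and 1.20. In sections 2 and 3 the excess was a few counts. At 6 to 10 positions the ratio was 1.16, 0.841 and 1.05, so section 2 was below its regions' level there. At 11 to 25 positions it was 1.16, 1.05 and 1.10, and at 26 to 50 positions 1.04, 0.991 and 0.999. Mbp itself, counted around its own spots, stood at 1.17, 0.913 and 1.07 times the region's level at 1 to 5 positions, so in section 2 it was not denser. Farther out Mbp did not fall steadily: it stood at 1.26, 0.985 and 1.23 at 6 to 10 positions and at 1.21, 1.06 and 1.09 at 11 to 25. For 6 granule cell genes the ratio was 1.05, 1.01 and 0.86 at 1 to 5 positions, and for 10 astrocyte genes 0.97, 0.97 and 1.12. All 3 sections of the 8 other members were above those of the other lists at this distance. In the same spot as Mbp the others had 5, 8 and 8 counts, at 1.001, 3.20 and 4.62 times the region's level. The rings of neighbouring Mbp spots overlap, so these counts are not independent, and no test was made.

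**Figure D4:**
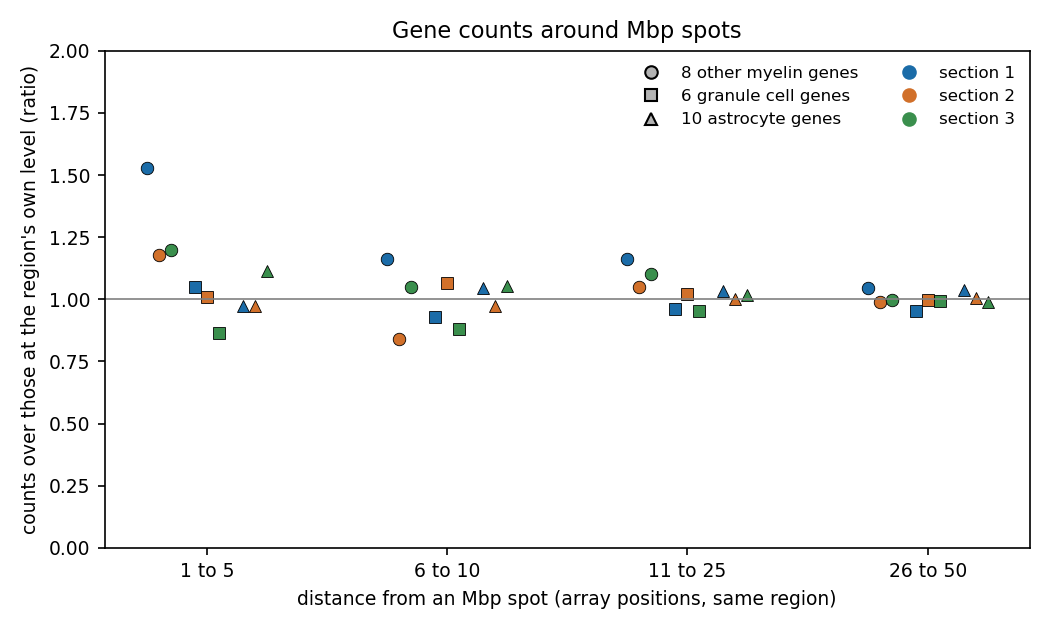
Ratio of counts found around Mbp spots to the counts at the level of the same region (y axis) by distance in array positions (x axis). Circles are the 8 other myelin genes, squares 6 granule cell genes and triangles 10 astrocyte genes, and colours are sections. The circles stand at 1.18 to 1.53 in the nearest ring and at 0.991 to 1.04 in the farthest.

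For correlations, levels were taken as log2(CPM + 50), centred on the mean of each section. Over the 27 sums of section and region, Mbp and the sum of the 8 other members correlated with a Pearson r of 0.76 and a Spearman rho of 0.75. Over the 24 sums without the rostral migratory system, this pair gave an r of 0.61 and a rho of 0.71. For Mbp with Mobp alone, r was 0.09 and rho 0.49 over the 27 sums, and 0.63 and 0.72 over the 24. The 3 sums left out include the smallest of all, where Mobp had 0 counts. The sums share sections and depths, so these are descriptions.

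Other genes of the pathway moved in no common direction. Of 36 further myelin and oligodendrocyte genes, 14 had enough counts, and between core and outer zone 2 were higher and 1 lower. Their median log2 difference was 0.02 against 0.01 over all genes, of which 6.81% were higher and 8.02% lower. The higher ones were Bin1, a membrane-shaping protein (0.86 ± 0.19, edgeR adjusted p = 2.19e-04), and Sept4, a septin of the cytoskeleton (0.83 ± 0.27, 0.0188). Bin1 measured 554, 190.4 and 150.4 CPM in the outer zone and 901, 357 and 425 CPM in the core. Apod, the lipid carrier apolipoprotein D, was the lower one, at -1.41 ± 0.19 (5.98e-11). Apod is also on the list of olfactory ensheathing glia genes used below. Of 13 precursor genes 2 were tested, and Ptprz1, a receptor phosphatase also made by astrocytes, was lower (-1.23 ± 0.20, 1.05e-07). Of 9 genes of the nodes and paranodes, the gaps between myelin segments and their flanks, 5 were tested, and the potassium channel gene Kcna2 was lower (-1.52 ± 0.28, 5.22e-06). Of the 10 lineage regulators and 5 peripheral myelin genes, 0 had enough counts. Olig1, the bHLH factor with the most counts among the regulators (151), measured 102, 101 and 115 CPM in the outer zone and 134, 108 and 114 CPM in the core. Myrf had 17 counts, at 76.7, 32.4 and 0 CPM in the core and 2.47 to 7.28 CPM in the outer zone.

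Markers of other cell types also differed between the zones. Between core and outer zone 5 of 6 granule cell genes were higher, where 6.81% of the 2481 genes tested were higher. Over the same comparison 7 of 8 tested astrocyte genes and 5 of 5 tested mitral and tufted cell genes were lower. So were 3 of 4 tested genes of olfactory ensheathing glia, Apod among them, and 2 of 4 blood genes. Of all genes tested, 8.02% were lower. Their part in the differences of the myelin genes was not tested. Choroid plexus markers were at or near 0: Folr1 had 0 counts, Ttr 3, Clic6 4 and Kl 5 in all.

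The genes whose pattern was most like the sum of the 9 members were sought among 932 genes with at least 300 counts. The measure was the Pearson correlation over the 27 sums of log2(CPM + 50), centred on the mean of each section. Fth1, the ferritin heavy chain that stores iron, was the nearest (r = 0.81), followed by Atp5k (0.77), Sez6 (0.75), Fscn1 (0.75), Bin1 (0.74), Ndufb9 (0.73), Penk (0.72), Aplp1 (0.72), Rplp1 (0.71) and Clu (0.71). Penk, which encodes the precursor of enkephalins, is a gene of neurons. By Spearman correlation 7 of the 10 stayed among the nearest, and without the rostral migratory system only Bin1 did. The list therefore rests largely on 3 of the 27 sums.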

How the data were processed

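The authors deposited a raw count for each gene in each tissue-covered spot, and a table of spot positions and regions, for each of 3 sections; these are counts per the values (whole numbers with unequal totals). The aligner, counter and use of molecular identifiers are not stated in any source used here. The pixel position of a spot gave its region (100% of entries). By spot name, 97.1% of entries in sections 2 and 3 fell in the same region. Counts without a gene name (0.0325% to 0.0801%) and spots of no named region stayed out. Counts were summed per section and region (27 sums) or zone (12 sums).

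edgeR 4.0.16 in R 4.3.3 (quasi-likelihood) was fitted with section as a block, TMM scaling and filterByExpr with a minimum count of 10, leaving 1996 genes for regions and 2481 for zones, with Benjamini-Hochberg adjustment over all genes and a threshold of 0.05. Sums of 1 section deviated together (mean correlation 0.51 over 108 pairs, 1 as low as 0.06). The fit was tested on simulated data, where it did less well for the rostral migratory system than for the other comparisons simulated. Alternatives were RLE scaling, library sizes alone, no filter, no section block, each section left out, the join by name, leaving out spots within 5 positions of a border, DESeq2 1.42.0, and no rostral migratory system. Leaving out that region's sum of section 3 alone was added after seeing the data. Limits for a count of 0 are 3 counts of the total. All 9 members, the tested genes of each list or its members with most counts, and the 10 genes of most similar pattern are named. Members and lists were chosen with earlier results of these data known. Tables used Python 3.11.15. 1 gene of the wider myelin list is not reported here.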

Additional observations from a re-analysis of the deposited data

Results flagged for a closer look

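In sections 1, 2 and 3, 91, 6424 and 4444 spots carry no named region and enter no comparison. In section 2 they held 7 member counts among 5699 (5 of Mbp, 1 of Mag and 1 of Mal), or 1228 CPM. This was picked out because it lies above the 526 CPM that a count of 0 would allow there and comes from spots outside the comparisons. It is near the 1172 CPM of the outer zone of that section. The same spots of section 3 held 2 member counts, or 582 CPM, under the limit of 873 CPM.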

How the results depend on the processing

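Member calls were few, and all were lost under some alternative. Of 746 values of a tested member under an alternative, 607 kept their direction and side of the threshold, 98 lost the call, 9 gained it and 32 changed sign, none of these 32 with a call. Mbp and Mobp stayed higher in the core than in the outer zone under 10 of 11 alternatives each, all but the fit without the section block. Without that replicate block, 0 of the 4 tested members passed in every comparison that had a call: core against outer, granule and middle zones, granule against outer zone, the olfactory nerve, glomerular, external plexiform and mitral layers, the ependymal cell zone, plus the rostral migratory system against all others or the internal granule cell layer. The number of members called (4 at most) then was as follows.

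For core against outer zone (4 calls) it was 2 with DESeq2, 2 without spots near borders, 2 with no filter, 3 without the rostral migratory system (Mal lost), and 2 to 3 with a section left out. For core against granule zone (1 call) it was 0 without the rostral migratory system, 0 with DESeq2, and 0 to 1 with a section left out. For core against middle zone (2 calls) it was 0 with DESeq2, 0 without spots near borders, 0 without the rostral migratory system, 1 with library sizes alone, 1 with no filter, 1 with the join by name, and 0 to 1 with a section left out. For granule against outer zone (2 calls) it was 0 with DESeq2, 0 without spots near borders, 0 with no filter, and 0 to 2 with a section left out. For the ependymal cell zone (2 calls) it was 0 with DESeq2, 1 with RLE scaling, and 0 to 2 with a section left out. For the external plexiform layer (2 calls) it was 0 with DESeq2, 0 with no filter, 0 without the rostral migratory system, 1 without spots near borders (Mal at -1.04, with Mbp and Mobp lost), and 0 to 1 with a section left out. For the glomerular layer (2 calls) it was 0 with DESeq2, 0 with no filter, 0 without spots near borders, 0 without the rostral migratory system, 1 with the join by name, and 0 to 0 with a section left out. For the mitral layer (1 call) it was 0 with no filter, and 0 to 1 with a section left out, as in the olfactory nerve layer (1 call). For the rostral migratory system (1 call) it was 2 with library sizes alone, 2 without its sum of section 3, and 0 to 2 with a section left out. Against the internal granule cell layer (1 call) it was 2 with library sizes alone, 0 with no filter and 0 to 1 with a section left out. Against the ependymal cell zone (0 calls) it was 1 with DESeq2, 1 with RLE scaling and 1 with library sizes alone. For the internal plexiform layer (0 calls) it was 0 to 1 with a section left out. The cause of these changes was not tested, beyond the fewer sections or spots that some alternatives hold.

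Signs changed as follows on the log2 scale, with no call. With no filter, the glomerular layer gave 0.10 for Cnp and 0.052 for Mal, the external granule cell layer -0.20 for Mbp, and the internal granule cell layer 0.10 for Mbp and 0.044 for Mobp. Internal against external granule cell layer gave 0.27 for Mbp, and the rostral migratory system against the ependymal cell zone -0.23 for Cnp, -0.27 for Mal and -0.30 for Mobp. Without spots near borders, the internal granule cell layer gave 0.16 for Mbp, and core against middle zone -0.052 for Cnp and -0.58 for Mal. Without the rostral migratory system, the internal granule cell layer gave 0.14 for Mbp and 0.052 for Mobp. Leaving out 1 section turned 18 more values, 15 of them without section 1; these results ranged over the left-out sections as follows. In the rostral migratory system they ran from -0.65 to 1.35 for Mobp, from -0.89 to 1.55 for Mal and from -0.20 to 1.26 for Cnp. Against the internal granule cell layer they ran from -0.90 to 1.42 for Mobp, from -0.92 to 1.84 for Mal and from -0.11 to 1.44 for Cnp. Against the ependymal cell zone they ran from -0.17 to 1.06 for Mbp, from -1.36 to 0.71 for Mobp, from -1.28 to 0.78 for Mal and from -0.32 to 0.52 for Cnp. In the internal granule cell layer they ran from -0.084 to 0.061 for Mbp, from -0.29 to 0.35 for Mobp and from -0.62 to 0.14 for Mal, and against the external one from -0.25 to 0.051 for Mbp. In the internal plexiform layer they ran from -0.00088 to 0.91 for Mbp and from -0.088 to 1.41 for Cnp, in the olfactory nerve layer from -0.20 to 1.04 for Mal and in the glomerular layer from -0.39 to 0.097 for Mal.

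By spots instead of counts, the members' level relative to the mean region moved by more than 1 SD in 5 of 9 regions, and without Mbp in 1 of 9. Counts were few: 5 of the 9 members could not be tested, and single regions held down to 12 member counts. Without spots near borders, the mitral layer, the external granule cell layer and the rostral migratory system held under 1000 counts in a section and were not fitted.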

Other observations

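Trf, the transferrin gene, gave 51, 13, 16 and 20 counts in the outer, middle, granule and core zones, or 69.1 ± 29.6, 78.4 ± 11.1, 68.3 ± 69.1 and 79.9 ± 16.9 CPM (SD, n = 3). In the rostral migratory system of section 3 it had 3 counts among 1456, or 2060.4 CPM, where Mobp, Mal, Cnp, Mag and Mog had 0. Mal in the granule zone ranged from 80.3 to 147 CPM, and in the middle zone from 149 to 157 CPM.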
